A study of Homo sapiens with 27 samples.

Results

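The genes described here are 9 surface antigens that are used to type or to treat B-cell precursor leukemia, CD22, MME, CD38, CD34, CD24, MS4A1, CD9, CD99 and CD44. They are a fixed list of gene symbols, taken from the 60619 gene identifiers of each count table. They were chosen by no rule on their values, but with earlier results of these data known. They were followed over 27 RNA sequencing libraries of REH, an established cell line of BCP-ALL (acute lymphoblastic leukemia of B-cell precursors) with an ETV6/RUNX1 fusion. All libraries come from this 1 line, so the fusion is shared by every group, controls included. The cells took up antisense oligonucleotides without a transfection reagent (gymnosis), at 10 µM, and were harvested after 72 hours. These were LNA GapmeRs, short oligonucleotides with locked nucleic acid bases at the ends that lead RNase H to cut the RNA they pair with. The study made them to silence 4 lncRNAs linked to ETV6/RUNX1, which are lnc-ASTN1-1, lnc-NKX2-3-1, lnc-TIMM21-5 and lnc-RTN4R-1, with 2 GapmeRs for each, called GapmeR1 and GapmeR2 here. Each GapmeR had 3 libraries, except GapmeR1 of lnc-NKX2-3-1 and GapmeR2 of lnc-ASTN1-1, which had 2. Cells in medium without oligonucleotide (n = 2) and cells given a non-targeting GapmeR (NTC, n = 3) were the 5 controls. Per the methods of the study the replicates were done on different days, and p-values measure the spread between these cultures of 1 line.

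Precursor B cells are typed by which of these proteins they carry. CD34 marks stem and progenitor cells, MME (CD10) and CD24 mark the precursor stages, and MS4A1 (CD20) appears as B cells mature, while CD22 is present through most of the lineage. CD22, MS4A1 and CD38 are targets of antibody drugs, and CD9, CD38, CD44 and CD99 are read by flow cytometry when residual leukemia is followed.

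The 9 oligonucleotides are the only agents that differ between the groups, and their sequences are given because the results below often differ between both GapmeRs of 1 lncRNA. They are written 5′ to 3′ as DNA letters, and the capitals mark the longest stretch shared by both GapmeRs of a lncRNA where it reached 8 bases.
NTC: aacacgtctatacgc
lnc-NKX2-3-1 GapmeR1: tgctctgtgcggattg
lnc-NKX2-3-1 GapmeR2: ctgatttttagtagtg
lnc-RTN4R-1 GapmeR1: gcattcatgggttaag
lnc-RTN4R-1 GapmeR2: tgctgagacatctagg
lnc-TIMM21-5 GapmeR1: AATTTTGCatttggta
lnc-TIMM21-5 GapmeR2: gtcactttAATTTTGC
lnc-ASTN1-1 GapmeR1: taatctgccaggagtg
lnc-ASTN1-1 GapmeR2: gtctgaagtaatgga
The GapmeRs against lnc-NKX2-3-1 shared no stretch longer than 4 bases, and those against lnc-RTN4R-1 none longer than 3. Each targeting GapmeR was complementary over its full length to an annotated transcript of its own lncRNA (GRCh38, GENCODE v44). For lnc-ASTN1-1 GapmeR1 the full match lay across a splice junction, in 8 of 12 transcripts.

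The gene bodies of the 9 antigens were searched on the sense strand for runs of at least 12 bases that could pair with a GapmeR. Of the 81 combinations of antigen and oligonucleotide, 7 held such a run, and none was a full match. The longest was 13 bases in an intron of CD34, for lnc-RTN4R-1 GapmeR2. It is shown with the full site in the lncRNA, since CD34 is the antigen called with this GapmeR by edgeR without a replicate block.
lnc-RTN4R-1, chr22:20198858-20198873, minus strand, exon: cctagatgtctcagca
CD34, chr1:207905879-207905891, minus strand, intron: agatgtctcagca
CD34 was higher in cells given this GapmeR (below), and 0.337% of 16025 tested genes held a run of at least 13 bases for it (1.56% at least 12). Fits with other settings also called CD24, CD9, MME and MS4A1 with this GapmeR. None of these held a run for it, and CD44, which was not called, held 12 bases. MS4A1 held 12 bases in an exon for lnc-ASTN1-1 GapmeR1, chr11:60464304-60464315, plus strand, cactcctggcag. The other runs of 12 bases were in introns, 1 in CD9 for lnc-TIMM21-5 GapmeR1, 1 in CD99 for NTC and 3 in CD44. No antigen held a run for lnc-NKX2-3-1 GapmeR1, the GapmeR with the most antigens called, and 0.3% of all tested genes did. Pairing with mismatches was not searched, and whether pairing bears on any antigen was not tested.

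Libraries had 14627110 to 22750945 counts assigned to genes. In cells given its own GapmeRs each target lncRNA was below every control, at 0 to 0.183 CPM (counts scaled to library size) against 0.326 to 1.26 for lnc-NKX2-3-1, 3.40 to 6.44 against 18.3 to 24.4 for lnc-RTN4R-1, 0.0452 to 0.503 against 1.08 to 2.19 for lnc-TIMM21-5 and 9.76 to 14.6 against 23.3 to 27.01 for lnc-ASTN1-1. The 8 libraries of replicate 3 stood apart from all others along the first principal component, which held 22.6% of the variance. The fits were repeated without them. Every antigen call of a single GapmeR, or between both GapmeRs of a lncRNA, was kept there, and values are given for only some of these fits. Of 9 markers of B-cell precursors, 8 had a median of at least 1 CPM, and VPREB1, a part of the surrogate light chain, was listed at 0 in all 27 libraries. T cell markers had 1 of 5 (CD247), myeloid markers 2 of 5 (MPO and CSF3R) and erythroid markers 0 of 3 at this level. HBB, CD3D and CD3G had no count in any library.

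The first question was which of the antigens these cells express, and at what level. To compare genes, CPM were divided by the exon length of each gene. CD24, a small glycoprotein anchored in the membrane by a lipid, had the most, at a mean of 114 CPM per kb over the 27 libraries. MME, a membrane peptidase, followed with 40.1, then CD99, a transmembrane glycoprotein of lymphocytes, with 34.3, and CD22, a lectin that dampens B-cell receptor signals, with 28.7 CPM per kb. CD38, an enzyme that consumes NAD, had 17.8 CPM per kb, and CD9, a tetraspanin that organises other membrane proteins, had 14.2. MS4A1 was at 2.42 CPM per kb. CD34, a sialomucin, was at 0.0805 CPM per kb, and CD44, the main receptor for hyaluronan, at 0.00517. REH cells thus carried CD24 and MME transcripts at high level, MS4A1 at low level, and CD34 and CD44 close to the limit of the depth. CD34 had 2 to 49 counts in a library. CD44 had 26 counts in all 27 libraries together, at most 6 in 1 library and 0 in 12, and a count of 0 allows up to 3 counts, or 0.129 to 0.208 CPM depending on the library. No fold change is given for CD44 for this reason. CD99 lies in a region shared by chromosomes X and Y, and CD24 has near-identical copies elsewhere in the genome. Multimapped reads are outside the counts, so the levels of both are uncertain, more so than differences between libraries.

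**Figure D1:**
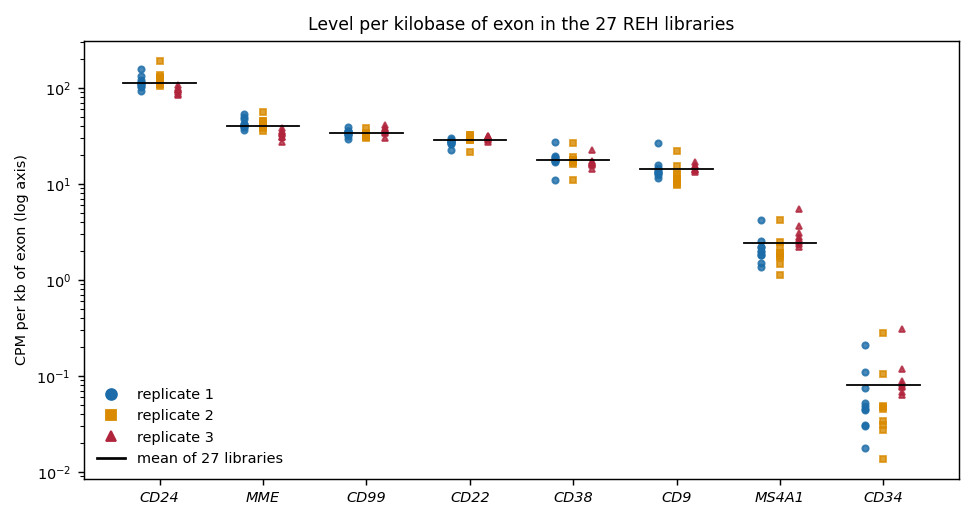
Level of 8 surface antigen genes in CPM per kb of exon (log axis) in each of the 27 libraries, with symbols for the replicate number and a line at the mean. The means run from 114 for CD24 down to 0.0805 for CD34, and CD44 is not drawn because 12 libraries had no count.

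CD22 (ENSG00000012124) lies on chromosome 19, 35319261 to 35347361, MME (ENSG00000196549) on chromosome 3, 155024124 to 155183704, and CD38 (ENSG00000004468) on chromosome 4, 15778275 to 15853232, all on the plus strand (GRCh38, counted from 1). CD34 (ENSG00000174059) lies on the minus strand of chromosome 1, 207880972 to 207911402, and CD24 (ENSG00000272398) on that of chromosome 6, 106969831 to 106975627. MS4A1 (ENSG00000156738) is on chromosome 11, 60455846 to 60470752, and CD44 (ENSG00000026508) on the same chromosome, 35138882 to 35232402. CD9 (ENSG00000010278) is on chromosome 12, 6199715 to 6238271, and CD99 (ENSG00000002586) on chromosome X, 2691187 to 2741309, and these 4 genes are on the plus strand. All are protein-coding. Counts on the opposite strand were at most 3.7% of both strands for any antigen (CD44, 1 of 27 counts).

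The next question was whether an antigen differed at all among the 10 groups. One test per gene over all 27 libraries called 7 of the 9 antigens at an adjusted p below 0.05, against 16.1% of 16269 genes. The adjusted p was 6.90e-08 for CD38, 5.42e-05 for MS4A1, 0.000150 for CD34, 0.00177 for CD24, 0.00182 for CD9, 0.00809 for CD22 and 0.0265 for MME. CD99 did not pass (adjusted p = 0.147), nor did CD44 (0.755). The same test with the replicate number as a block, which removes what libraries of the same number share, called 8 of 9 with CD99 added (adjusted p = 0.000129), against 48.6% of genes. Without the libraries of replicate 3 the test also called these 8, against 20.2% of genes. Without those of replicate 1 it called only CD38 (2.76% of genes), and without those of replicate 2 it called CD38, CD34 and CD9 (3.29%). In bulk RNA a change in the share of cells that carry an antigen cannot be told apart from a change per cell.

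The groups that stood out were few. When the 10 groups were ordered by mean level, neighbouring groups overlapped in nearly every case, and the breaks lay at or next to the ends. How often other genes break in this way was not counted, so the breaks are a description only. CD22 broke only below medium, where lnc-NKX2-3-1 GapmeR1 stood lowest at 135 ± 5.01 CPM (SD, n = 2), against group means of 172 to 194. MME broke only at the top, where 548 ± 18.9 CPM (SD, n = 2) in cells given lnc-NKX2-3-1 GapmeR1 lay above medium at 458 ± 18.2 (SD, n = 2). CD24 and CD9 also broke once, below the same GapmeR, which had 546 ± 74.0 CPM of CD24 and 142 ± 20.7 CPM of CD9 (SD, n = 2), and the next groups had means of 388 and 93.2 CPM. CD38 broke at both ends, with lnc-RTN4R-1 GapmeR1 highest at 175 ± 16.1 CPM (SD, n = 3), lnc-NKX2-3-1 GapmeR1 lowest at 74.9 ± 0.201 CPM (SD, n = 2), and the other 8 groups between 109 and 128. CD34 broke once, below lnc-RTN4R-1 GapmeR2 at 2.45 ± 0.477 CPM (SD, n = 3), and the other 9 groups ran from 0.300 to 0.908. MS4A1 broke below lnc-RTN4R-1 GapmeR1, at 22.2 ± 3.66 CPM (SD, n = 3). It broke again above medium and lnc-NKX2-3-1 GapmeR1, at 6.79 ± 0.319 and 6.32 ± 1.31 CPM (SD, n = 2 each). Both of these groups lack a replicate 3, the library with the highest MS4A1 in all 8 groups that have one. CD99 had no break, with group means from 151 to 193 CPM, and neither had CD44.

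**Figure D2:**
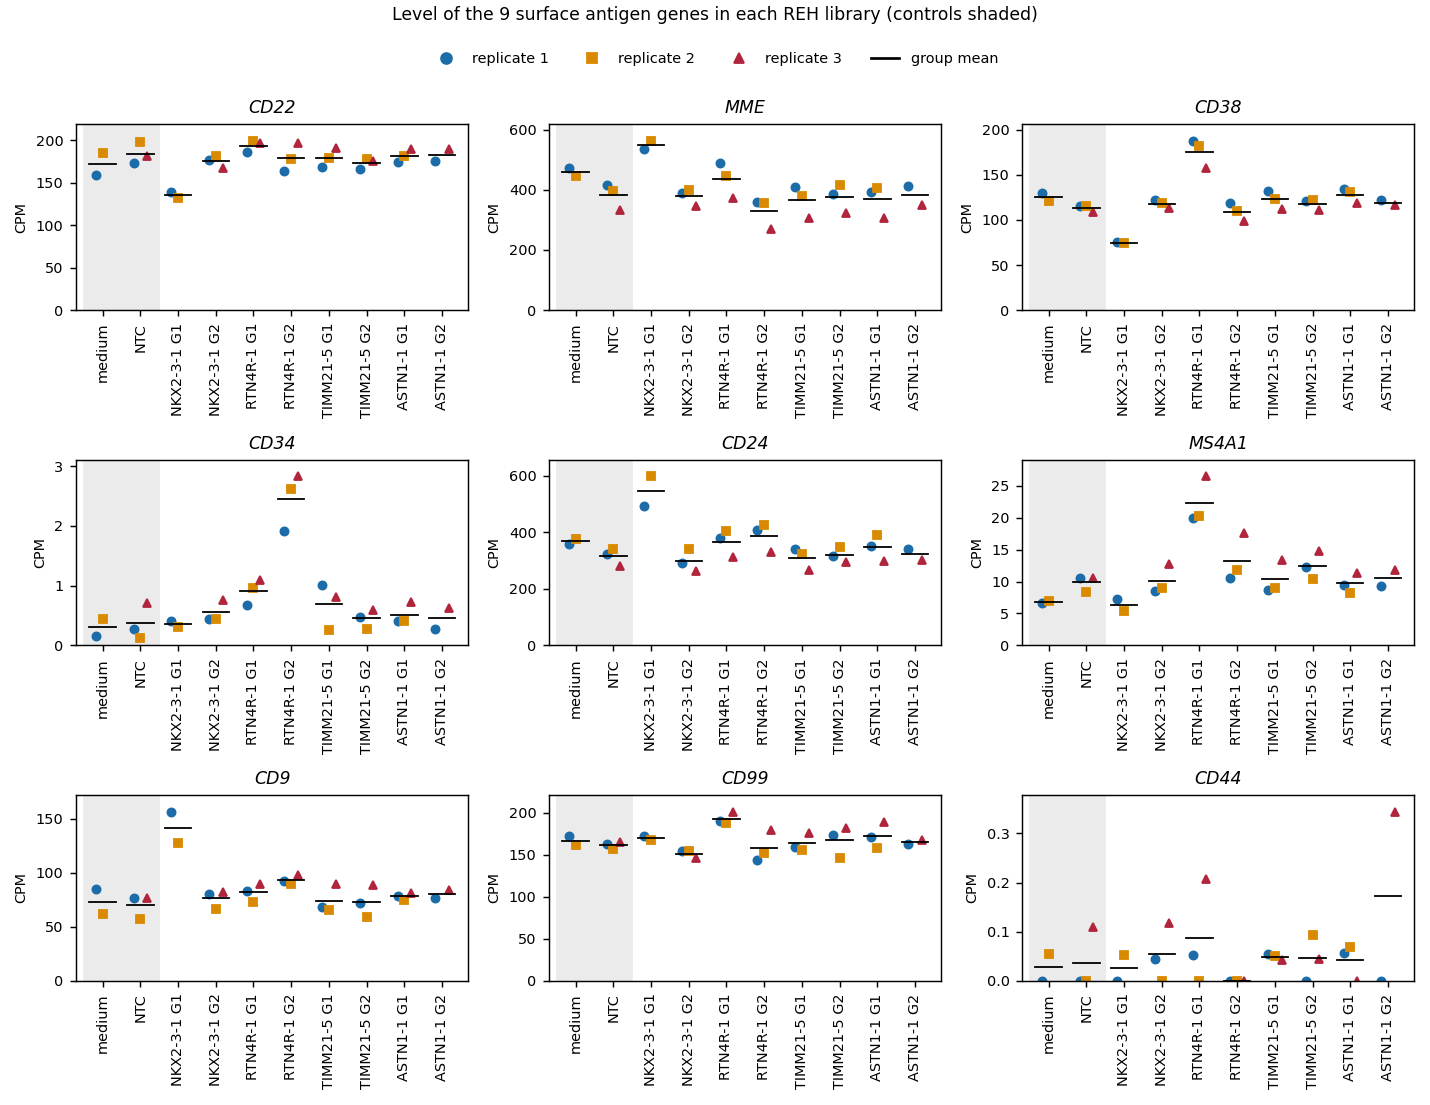
Level in CPM of the 9 surface antigen genes in each library, by group, with symbols for the replicate number, a line at the group mean and the control groups shaded. lnc-NKX2-3-1 GapmeR1 is lowest for CD22 and CD38 and highest for MME, CD24 and CD9, and lnc-RTN4R-1 GapmeR1 and GapmeR2 are highest for MS4A1 and CD34.

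For lnc-NKX2-3-1, antigens were called with GapmeR1 and not with GapmeR2. With GapmeR1, 5 of the 9 antigens changed against the 5 controls, CD9, CD24 and MME upwards and CD38 and CD22 downwards, and for these 5 no library of the GapmeR overlapped a control, as for 36% of the genes tested. This GapmeR changed many genes, and 17.6% of 15404 genes tested were called (7.41% higher and 10.2% lower). The comparisons of single GapmeRs with the controls all use the same 5 controls and are not independent of each other. Over the 8 GapmeRs, 8 calls of an antigen were made by edgeR and 11 by DESeq2, which added CD99 with lnc-RTN4R-1 GapmeR1 (adjusted p = 0.00217) and MS4A1 and CD9 with lnc-RTN4R-1 GapmeR2 (0.0275 and 0.0256).

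CD9 was at 157 and 127 CPM with lnc-NKX2-3-1 GapmeR1 and at 57.0 to 85.0 CPM in the 5 controls. Both libraries were above every control, and CD9 rose with a log2 fold change of 1.00 (SE 0.135, adjusted p = 0.000311). Within replicates 1 and 2 the difference in log2 CPM was 0.95 and 1.103. CD24 was at 494 and 598 CPM against 280.0 to 375 in the controls, and rose by a log2 fold change of 0.71 (SE 0.108, adjusted p = 0.00055), or 0.53 and 0.74 within replicates. MME was at 535 and 562 CPM against 332 to 471. Its rise was smaller, with a log2 fold change of 0.42 (SE 0.11, adjusted p = 0.0186), or 0.27 and 0.42 within replicates.

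CD38 moved the other way, at 75.0 and 74.7 CPM with this GapmeR and 109 to 130 CPM in the controls. It fell with a log2 fold change of -0.65 (SE 0.0802, adjusted p = 0.000104), or -0.71 and -0.66 within replicates. CD22 was at 139 and 132 CPM against 160 to 198, and fell with a log2 fold change of -0.40 (SE 0.0846, adjusted p = 0.00568), or -0.26 and -0.54 within replicates. With the replicate block the same 5 antigens were called and no other, against 36.4% of genes. MS4A1 was at 7.24 and 5.39 CPM against 6.56 to 10.6, with a log2 fold change of -0.44 (SE 0.208, adjusted p = 0.173). CD34 (0.07, SE 0.581) and CD99 (0.06, SE 0.0680) did not pass either, and the interval of the difference, from its SE, ran from -0.07 to 0.20 for CD99.

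These 5 calls rest on 2 libraries. When the libraries of replicate 1 or those of replicate 2 were left out, which leaves 1 library of this GapmeR and takes its spread from the controls alone, CD38 and CD9 still passed (adjusted p at most 0.0459 and 0.042), while CD22, MME and CD24 did not, with adjusted p up to 0.229, 0.293 and 0.0538. Among the myeloid markers, MPO was higher with this GapmeR (162 to 194 CPM against 84.8 to 132, log2 fold change 0.84, adjusted p = 0.00145) and CSF3R lower (6.12 to 9.40 against 14.0 to 23.4 CPM, -1.08, adjusted p = 0.00505). The summed level of the 5 myeloid markers was 169 to 204 CPM with the GapmeR, 99.1 to 112 in medium and 107 to 156 in NTC, while CD14, LYZ and CD68 stayed below 1 CPM in every library. Of the B-cell precursor markers, EBF1, a transcription factor of the lineage, was lower (223 to 239 CPM against 291 to 325, -0.41, adjusted p = 0.00293) and RAG1, a recombinase of receptor genes, higher (2037 to 2197 against 1502 to 1804 CPM, 0.40, adjusted p = 0.00785). The 9 markers of this list summed to 5333 to 5602 CPM with the GapmeR, 5094 to 5378 in medium and 4826 to 5057 in NTC. Whether these markers bear on the antigens was not tested.

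With GapmeR2 against the same lncRNA no antigen was called, and 0 of 15128 genes were called (0%). At an unadjusted p under 0.05 edgeR had 0 of the 9 antigens and 616 genes. CD9, for example, was at 66.4 to 82.3 CPM, inside the range of the controls, with a log2 fold change of 0.10 (SE 0.126) and an interval from -0.15 to 0.35. CD38 had a log2 fold change of 0.00 and an interval from -0.13 to 0.13. CD99 was below every control, at 145 to 154 CPM against 157 to 172, without passing the test (-0.11, SE 0.0587, adjusted p = 0.912).

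A direct comparison of both GapmeRs called the same 5 antigens, against 13% of 15378 genes. GapmeR1 was higher than GapmeR2 by a log2 fold change of 0.90 for CD9 (SE 0.118, adjusted p = 0.000898), 0.88 for CD24 (SE 0.123, adjusted p = 0.00129) and 0.54 for MME (SE 0.0925, adjusted p = 0.00404). It was lower by -0.65 for CD38 (SE 0.0831, adjusted p = 0.000737) and -0.37 for CD22 (SE 0.0817, adjusted p = 0.0154). Without the libraries of replicate 1 or 2 the calls of CD22 and MME were lost (adjusted p up to 0.434 and 0.0821). MS4A1 was lower and CD99 higher with GapmeR1 in every library, and passed only with the replicate block (adjusted p = 0.00169 and 0.00146), where 41.7% of genes were called on 1 residual degree of freedom. lnc-NKX2-3-1 itself was at 0.183 and 0.0518 CPM with GapmeR1 and 0 to 0.178 CPM with GapmeR2. With both GapmeRs together against the controls, the design of the study, 0 of 9 antigens were called (0% of 14853 genes), both by edgeR and by DESeq2, and 1 (CD9) had an unadjusted p under 0.05. The block called none either, with both GapmeRs (0.0135% of genes) or with GapmeR2 alone (2.72%).

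**Figure D3:**
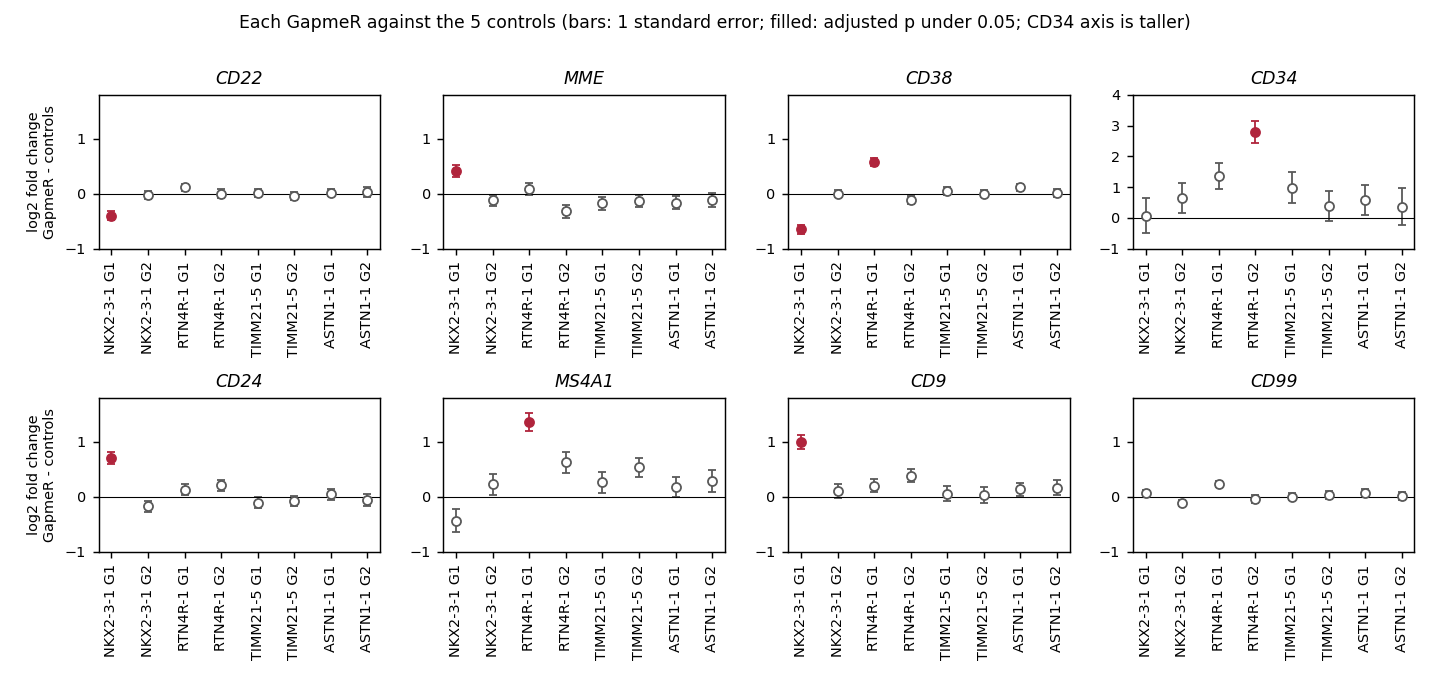
Log2 fold change of 8 surface antigen genes for each of the 8 GapmeRs against the 5 controls, with bars of 1 standard error and filled points where the adjusted p is below 0.05. The 8 filled points are 5 for lnc-NKX2-3-1 GapmeR1, 2 for lnc-RTN4R-1 GapmeR1 and 1 for lnc-RTN4R-1 GapmeR2, and CD44 is not drawn.

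With the GapmeRs against lnc-RTN4R-1 some antigens rose. The median log2 fold change of the 9 antigens without the block was 0.24 with GapmeR1 and 0.0014 with GapmeR2. Both medians rank CD44 among the 9 despite its very low counts, and would differ without it. Without the block, edgeR called MS4A1 and CD38 as higher with GapmeR1, where 1.59% of 15187 genes were called (1.01% higher). It called CD34 as higher with GapmeR2, where 6.62% of 15051 genes were called (2.76% higher). With the replicate block 6 antigens were called with GapmeR1 and 5 with GapmeR2, against 9.41% and 22.4% of genes, and CD24, CD34, CD9 and MS4A1 were then called as higher with both. Between both GapmeRs 2 antigens were called, CD38 and CD34, against 5.91% of 14905 genes, and 7 with the block, against 30.9%.

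MS4A1 was at 20.0, 20.3 and 26.4 CPM with lnc-RTN4R-1 GapmeR1 and at 6.56 to 10.6 CPM in the controls. All 3 libraries were above every control, and MS4A1 rose with a log2 fold change of 1.37 (SE 0.161, adjusted p = 0.000706). Within replicates it was 1.25, 1.39 and 1.31, where replicate 3, here and below, had NTC as its only control. With GapmeR2 it was at 10.6, 11.8 and 17.5 CPM, which overlaps the controls. Its log2 fold change there was 0.63 (SE 0.193, adjusted p = 0.0758), and 0.55 with the replicate block (adjusted p = 0.00313). Directly compared, GapmeR1 had more MS4A1 than GapmeR2 in every library, by 0.74 (SE 0.188, adjusted p = 0.0503), and by 0.75 with the block (adjusted p = 1.01e-07).

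CD38 was at 187, 182 and 157 CPM with GapmeR1, above every control (109 to 130 CPM), and at 119, 109.9 and 98.4 CPM with GapmeR2. It rose with GapmeR1 by a log2 fold change of 0.57 (SE 0.0728, adjusted p = 0.00121), or 0.61, 0.62 and 0.53 within replicates. With GapmeR2 it was -0.11 (SE 0.077, adjusted p = 0.462), and the difference between both GapmeRs was 0.69 (SE 0.0927, adjusted p = 0.00254). Without the libraries of replicate 1 or 2 neither CD38 nor MS4A1 passed with GapmeR1 (adjusted p up to 0.163 and 0.0872), and the difference of CD38 between both GapmeRs did not either (up to 0.0951).

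CD34 was at 1.91, 2.61 and 2.83 CPM with GapmeR2 and at 0.126 to 0.706 CPM in the controls, from 33 to 49 counts against 2 to 13. All 3 libraries were above every control, and CD34 rose with a log2 fold change of 2.79 (SE 0.358, adjusted p = 0.00027), or 2.65, 2.94 and 1.85 within replicates. It passed under all 11 alternatives, with adjusted p of 0.04 at most. The antigens were kept in every fit, so the alternatives that changed the filter could not drop CD34. The counts are low, and CD34 reached the count limit of the filter in this comparison through the libraries of GapmeR2, so its size is less certain than its direction. With GapmeR1 it was at 0.683, 0.954 and 1.09 CPM, partly within the controls, with a log2 fold change of 1.37 (SE 0.422, adjusted p = 0.193), and 1.27 with the block (adjusted p = 0.0158). CD34 reached the count limit there through the libraries of GapmeR1, with 13 to 21 counts, so the call with the block rests on the group where it was high. GapmeR1 had less CD34 than GapmeR2 by -1.42 (SE 0.262, adjusted p = 0.013), a call lost without the libraries of replicate 1 or 2 (adjusted p up to 0.185).

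Marker genes moved with the same GapmeR. MPO, the myeloperoxidase of granules, was at 291 to 445 CPM with lnc-RTN4R-1 GapmeR2 against 84.8 to 132 CPM in the controls (log2 fold change 1.78, SE 0.165, adjusted p = 9.01e-05), and the 5 myeloid markers summed to 309 to 477 CPM against 99.1 to 156. CSF3R did not pass (0.40, adjusted p = 0.359), and CD14, LYZ and CD68 were below 1 CPM in every library. Of the B-cell precursor markers, IGLL1 was lower (-0.29, adjusted p = 0.0444), and among T cell markers CD247 was lower (-0.76, adjusted p = 0.0171), with the list summing to 2.22 to 2.94 CPM against 3.77 to 5.54. Whether these bear on CD34 was not tested.

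The other antigens had smaller differences with the GapmeRs against lnc-RTN4R-1, and none passed by edgeR without the block. CD99 was at 188 to 201 CPM with GapmeR1, above every control (157 to 172), with a log2 fold change of 0.24 (SE 0.0559, adjusted p = 0.0559), and passed with the block (0.23, adjusted p = 3.33e-05). CD9 was at 89.4 to 98.2 CPM with GapmeR2, above every control (57.0 to 85.0), with 0.39 (SE 0.113, adjusted p = 0.0612), and passed with the block (0.38, adjusted p = 9.08e-05), as it did with GapmeR1 (0.19, adjusted p = 0.0108). CD24 was higher by 0.16 and 0.25 with GapmeR1 and GapmeR2 with the block (adjusted p = 0.00595 and 0.000413), and did not pass without it (0.13 and 0.21). MME was at 270 to 361 CPM with GapmeR2, partly below the controls, and was lower only with the block (-0.28, adjusted p = 0.00025). CD22 stayed at 164 to 199 CPM with either GapmeR, with intervals from -0.02 to 0.25 and from -0.16 to 0.16. CD44 had no count in the 3 libraries of GapmeR2 and 0, 1 and 4 counts with GapmeR1.

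With both GapmeRs of lnc-RTN4R-1 together against the controls, 0 of 9 antigens were called, against 0.483% of 14912 genes. CD34 (log2 fold change 2.23, SE 0.473, adjusted p = 0.0585), MS4A1 (1.05, SE 0.229, adjusted p = 0.0726) and CD9 (0.30, SE 0.1, adjusted p = 0.27) were the 3 with an unadjusted p under 0.05. DESeq2 called CD34 and MS4A1. With the replicate block CD34 (2.16, adjusted p = 0.0496) and CD24 (0.21, adjusted p = 0.0278) were called, against 1.97% of genes, and with replicates 1 and 2 alone CD34 was called (2.54, adjusted p = 0.0447). Single libraries decided this count. CD34 passed without NTC replicate 3 (adjusted p = 0.0278) and without GapmeR1 replicate 1 (0.0299), and MS4A1 passed without GapmeR2 replicate 1 or 2. In this comparison too CD34 reached the count limit of the filter through the GapmeR libraries. Its calls here therefore rest on the groups where it was high, and the size of its difference is uncertain. The median log2 fold change of the 9 antigens was 0.27, with CD44 ranked among them despite its very low counts, and that of all genes tested 0.01. In the further gene lists described below it was 0.19 (other B-lineage antigens), 0.06 (residual disease or treatment antigens) and 0.07 (partners). Whether the antigens moved as a set was not tested.

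With the GapmeRs against lnc-TIMM21-5 no antigen was called without the block. Together they called 0 of 9, against 0.00665% of 15031 genes, by edgeR and by DESeq2, and MS4A1 alone had an unadjusted p under 0.05 (log2 fold change 0.41, SE 0.163, adjusted p = 0.869). GapmeR1 called 0 of 9 (0.079% of genes, 0 antigens at an unadjusted p under 0.05) and GapmeR2 0 of 9 (0.0593% of genes, 1 antigen). MS4A1 was at 12.2, 10.4 and 14.8 CPM with GapmeR2, against 6.56 to 10.6 in the controls, a log2 fold change of 0.54 (SE 0.171, adjusted p = 0.9996), and was the only antigen called with the block (0.48, SE 0.11, adjusted p = 0.0462, against 0.33% of genes). It was at 8.67, 8.95 and 13.3 CPM with GapmeR1 (0.27, SE 0.189). The direct comparison of both called no antigen (0.0784% of 15315 genes, none at an unadjusted p under 0.05), nor did the block there (0.509%), with both together (1.32%) or with GapmeR1 (2.79%). CD38, which moved with other GapmeRs, had intervals from -0.09 to 0.20 and from -0.13 to 0.13 here.

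The GapmeRs against lnc-ASTN1-1 also called no antigen, together (0.0136% of 14757 genes) or alone (0.718% of genes with GapmeR1 and 0.013% with GapmeR2), and DESeq2 called none with both together. With the block the count was also 0, against 0.881% of genes together, 4.87% with GapmeR1 and 0.215% with GapmeR2. Without the block no antigen had an unadjusted p under 0.05 in these 3 comparisons. MS4A1, whose exon holds the run of 12 bases for GapmeR1, was at 8.24 to 11.4 CPM with that GapmeR and 9.34 to 11.8 with GapmeR2, against 6.56 to 10.6 in the controls, with log2 fold changes of 0.18 (SE 0.177) and 0.29 (SE 0.198). CD24 had intervals from -0.16 to 0.25 and from -0.28 to 0.15. Between both GapmeRs 0.146% of 15070 genes and no antigen were called, and MME was lower with GapmeR1 only with the block (-0.14, adjusted p = 0.0454, against 4.28% of genes).

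The non-targeting GapmeR was compared with medium to see how cells given an oligonucleotide with no target differ from untreated cells. Against medium, edgeR called 0 of 9 antigens and 0% of 15102 genes, with 2 antigens (MME and MS4A1) and 670 genes at an unadjusted p under 0.05, and DESeq2 called none of the 9. The groups did not overlap for 4 antigens, and for 20.1% of all genes tested. MS4A1 was at 8.43 to 10.6 CPM in NTC and 6.56 and 7.02 in medium (log2 fold change 0.54, SE 0.167, adjusted p = 0.923). MME was at 332 to 416 against 445 and 471 CPM (-0.26), CD24 at 280.0 to 343 against 360.5 and 375 CPM (-0.22), and CD38 at 109 to 116 against 121 and 130 CPM (-0.14). With the block MS4A1 (0.48, adjusted p = 0.0417), MME (-0.17, adjusted p = 0.00399) and CD24 (-0.14, adjusted p = 0.0336) were called, against 1.53% of genes, on 1 residual degree of freedom. The controls for MS4A1 were thus not uniform. Against NTC alone, MS4A1 was also called as lower with lnc-NKX2-3-1 GapmeR1, and the 8 calls of single GapmeRs became 9.

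Antigens also differed by replicate number, in the same direction in most groups. In the 8 groups with a replicate 3, this library had the lowest MME, CD38 and CD24 of its group in 8 of 8, by a mean of -0.31, -0.15 and -0.27 in log2 CPM. It had the highest MS4A1 and CD9 in 8 of 8, by 0.43 and 0.22, and the highest CD34 and CD99 in 7 of 8, by 0.69 and 0.12. CD22 had no such order (lowest in 1, highest in 4). lnc-NKX2-3-1 GapmeR1 and medium have no replicate 3. The levels of these groups are therefore means of replicates 1 and 2 only. The within-replicate values above compare libraries of the same number, but not always with the same controls. In replicates 1 and 2 these were medium and NTC, and in replicate 3 NTC alone. NTC minus medium in replicates 1 and 2 was 0.67 and 0.26 for MS4A1, and 0.54 and -1.23 for CD34. Values of replicate 3 thus have another baseline.

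**Figure D4:**
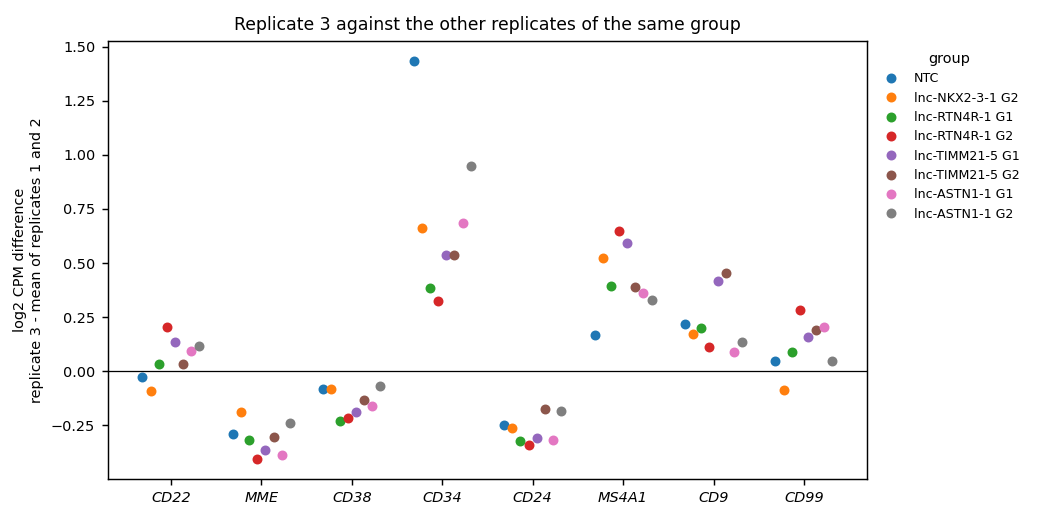
Difference in log2 CPM between replicate 3 and the mean of the other replicates of the same group, for 8 surface antigen genes, with 1 point for each of the 8 groups that have a replicate 3. All 8 points lie below 0 for MME, CD38 and CD24 and above 0 for CD34, MS4A1 and CD9.

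The genes whose log2 CPM followed an antigen most closely over the 27 libraries were found among 16267 tested genes, as a description. CD22 was most like LTB, a lymphocyte cytokine (Pearson r = 0.92), and SMAD3 (0.90). CD38 was most like SUCLG2 (0.91), MS4A1 like MYO7B (0.93), CD9 like IST1 (0.86) and CD34 like NAV1 (0.85). CD99 was most like CD79A, a chain of the B-cell receptor (0.93). MME was most like XPO1 (0.96), a nuclear export factor, and CD24 like SNX2 (0.95). Libraries of the same replicate number share their day, and those of the same group their treatment, so the 27 libraries are not independent of each other here.

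Other surface antigens of the lineage were read from 3 further lists. Of 18 other B-lineage antigens, 15 were tested over all groups and 5 passed, against 16.1% of all genes, CD53, PTPRC, TNFRSF13B, CD52 and CD40. With the block 14 of the 15 passed, against 48.6% of all genes. With lnc-NKX2-3-1 GapmeR1 2 of 14 tested passed, against 17.6% of all genes, and both were lower. These were CD53, a tetraspanin like CD9 (log2 fold change -0.90, adjusted p = 3.12e-06), and CD40 (-0.52, adjusted p = 0.0457). With lnc-RTN4R-1 GapmeR1 2 of 15 tested passed, against 1.59% of all genes, and both were higher. These were CD79A (0.33, adjusted p = 0.015) and TNFRSF13B (2.35, adjusted p = 0.00217), a receptor that was at 1.34 ± 0.262 CPM (SD, n = 3) there. It was low in the controls, at 0.190 ± 0.0409 CPM in medium (SD, n = 2) and 0.312 ± 0.130 in NTC (SD, n = 3). TNFRSF13B reached the count limit of the filter in this comparison through the libraries of GapmeR1. Its call therefore rests on the group where it was high, and the size of its difference is uncertain. With lnc-RTN4R-1 GapmeR2 1 of 14 tested passed, against 6.62% of all genes. This was CD52, the target of alemtuzumab, which was higher (0.69, adjusted p = 0.00205).

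A further list held 18 antigens that are used to follow residual disease or as treatment targets. Over all groups 13 were tested and 7 passed, against 16.1% of all genes, KIT, CD47, BST2, FLT3, CD58, ITGA6 and NRP1. With the block 10 passed, against 48.6% of all genes. KIT, the receptor for stem cell factor, was higher with lnc-RTN4R-1 GapmeR1 (0.85, adjusted p = 0.000216) and lower with GapmeR2 (-0.51, adjusted p = 0.00853), a direct difference of 1.37 (adjusted p = 7.63e-05). CD47, which protects cells from phagocytosis, was lower with lnc-RTN4R-1 GapmeR2 (-0.84, adjusted p = 9.13e-06), at 108 ± 10.6 CPM (SD, n = 3) against 195 ± 6.11 in NTC (SD, n = 3).

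Of 20 partners, ligands or relatives of the 9 antigens, 16 were tested and 6 passed, against 16.1% of all genes. Among the 6 were EZR, CD99L2, CD82, RDX and CD63. With the block 12 passed, against 48.6% of all genes. EZR and RDX, which link CD44 to the cytoskeleton, rose with lnc-NKX2-3-1 GapmeR1 (0.45 and 0.32). With the same GapmeR CD99L2, a relative of CD99, fell (-0.48, adjusted p = 0.00147), as did IGSF8, a partner of CD9 (-0.35, adjusted p = 0.0356). CD82, a tetraspanin like CD9, was called with both GapmeRs of lnc-RTN4R-1, at 1.64 with GapmeR1 (adjusted p = 0.00152) and 1.23 with GapmeR2 (adjusted p = 0.00577), and with both together (1.46, SE 0.223, adjusted p = 0.00846). This was not particular to lnc-RTN4R-1. Mean CD82 was 3.10 to 7.34 CPM over the targeting groups, against 2.28 in medium and 2.37 in NTC. The block also called it with each GapmeR of lnc-NKX2-3-1, with lnc-TIMM21-5 GapmeR1 and with both GapmeRs of lnc-TIMM21-5 together.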

How the data were processed

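RNA of 27 REH cultures was sequenced and the authors deposited STAR count tables on hg38, as whole-number read counts per gene with 1 column for each strand setting and no normalization. Per the labels the RNA was ribodepleted and stranded, while the methods of the study describe poly-A selection. The annotation release is not given in the sources used here. Column 4 was used, which held 95.3% of the counts of both strand columns. The 4 entries that name no gene (unmapped, multimapped, no feature, ambiguous; 23.0% to 28.5% of a library, 6.07% to 7.78% multimapped) were left out. Of 60619 identifiers, 56434 matched GENCODE release 44, which gave positions and exon lengths.

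Only the samples of a comparison entered its fit, made in edgeR 4.0.16 (R 4.3.3) by the quasi-likelihood F test with TMM scaling, without a block. Genes passed filterByExpr (minimum count 10, minimum total 15), and the 9 antigens and 4 target lncRNAs were always kept. Of the antigens, 7 or 8 passed the filter on their own. p-values were adjusted by Benjamini-Hochberg over all genes tested, and an adjusted p below 0.05 was a call. SEs were derived from the F statistic and intervals are 1.96 SE on each side. The scripts were tested on simulated data. Alternatives were DESeq2 1.42.0 (the tool of the study), RLE scaling, no filter, at least 10 counts in every sample, unstranded counts, a single fit of all samples, NTC as the only control, the replicate number as a block, libraries left out, and, chosen after seeing the data, replicates 1 and 2 only.

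The replicate numbers were taken to pair the samples, since the methods of the study place the replicates on different days. Deviations from group means correlated by 0.263 on average over 109 pairs of the same number in different groups (lowest -0.0349) and by -0.130 over 218 pairs of different numbers. Replicates of a group differed by more than counting noise (chi-square per degree of freedom 3.21 to 15.7 over 24 pairs). Counting limits cover counting error only. The antigens, the gene lists and the GapmeR comparisons were chosen with earlier results of these data known. Named genes are the 9 antigens, some of the list genes called in a comparison, and the most similar genes by Pearson r. GapmeR sequences come from the supplementary table of the study. One result of the gene lists is not reported here.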

Additional observations from a re-analysis of the deposited data

Results flagged for a closer look

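In 7 cases an antigen differed between both GapmeRs of the same lncRNA by a direct test. For lnc-NKX2-3-1 the log2 difference, GapmeR1 minus GapmeR2, was -0.37 for CD22, 0.54 for MME, -0.65 for CD38, 0.88 for CD24 and 0.90 for CD9. For lnc-RTN4R-1 it was 0.69 for CD38 and -1.42 for CD34. Of the 45 sets of 4 to 10 samples that were tested for a sample far from the rest, 1 had one, where chance gives about 1 in 20. This was CD44 in the 6 libraries of the GapmeRs against lnc-RTN4R-1, where GapmeR1 replicate 3 was at 0.207 CPM from 4 counts and the gap was 0.628 of the range.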

How the results depend on the processing

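The 15 calls of single antigens (8 for single GapmeRs, 7 between GapmeRs) were all kept in the 113 alternatives that left out no replicate, and in 27 of 45 that left one out. Antigens were kept in every fit, so a change of the filter could not drop the calls of CD34. Without replicates 1, 2 or 3 in turn, the calls over all 10 groups ranged from 1 to 8 against 7, those of single GapmeRs from 3 to 10 against 8, and those between GapmeRs from 3 to 10 against 7. With the replicate block these became 8, 17 (14 higher, 3 lower) and 15, NTC against medium went from 0 to 3, and lnc-RTN4R-1 with both GapmeRs from 0 to 2. The block changed no call from passing to not passing. DESeq2 gave 11 calls between GapmeRs and 2 for lnc-RTN4R-1, and no filter gave 11 between GapmeRs. A single fit of all samples gave 3 for lnc-RTN4R-1 as well as 3 for lnc-NKX2-3-1, and replicates 1 and 2 only, chosen after seeing the data, gave 1 for lnc-RTN4R-1, where leaving out 1 library gave 0 to 1. MME between the GapmeRs of lnc-ASTN1-1 was -0.05 and ran from -0.13 to 0.026 without replicate 2 or 1, none passing. The causes were not tested. Depth limits CD34 and CD44, which had at most 49 and 6 counts in a library.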
